A study of Homo sapiens with 10 samples.

Results

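The dual-specificity phosphatases are enzymes that remove phosphate from both the tyrosine and the threonine or serine residues of their substrates. The 10 genes described here, DUSP1, DUSP2, DUSP4, DUSP5, DUSP6, DUSP8, DUSP10, DUSP14, DUSP15 and DUSP16, were taken by symbol from the 20030 genes of an FPKM table (a level scaled to gene length and to library size). They were named with their FPKM in all 10 libraries already known. Their differences between treatments and between cell lines are therefore a description, and nothing is concluded from how many of them moved. Another 17 genes of the family were in the table. All 10 described genes and 11 of the 17 others averaged 1 FPKM or more over the libraries, the level required for the fit across genes.

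Mitogen-activated protein (MAP) kinases (ERK, JNK and p38) are switched on by phosphorylation of a threonine and a tyrosine in one loop, and MAP kinase phosphatases of this family switch them off. Several of these phosphatase genes are themselves transcribed when MAP kinases are active, so that they act as negative feedback. Members differ in where they sit in the cell and in which kinase they prefer, and a further group, the atypical members, lacks the kinase-binding domain and has more varied substrates.

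The RNA was from human liver cancer cells of 3 established lines, to which the labels give the names Huh7, PLC and 97H. All 3 lines were given vehicle (control) or an inhibitor of the cell-cycle kinases CDK4 and CDK6. PLC and 97H were also given an inhibitor of the nuclear export receptor XPO1, titled KPT330, or both inhibitors together (combination). There was 1 library for each line and treatment, so the cell line was the replicate, with n = 3 lines for the CDK4/6 inhibitor and n = 2 for the XPO1 inhibitor and the combination. The labels give no dose, time or culture number, and p-values measure only the spread between these libraries. In RNA from a whole culture, fewer cells expressing a gene and less RNA per cell cannot be told apart.

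Total counts are not given in the table, so absolute depth is unknown. Low FPKM values put the depth of 9 libraries at 0.865 to 1.14 times that of the PLC combination library, an estimate resting on 1.47% to 4.78% of low genes. Only a narrow range around equal depth was searched, so a larger difference in depth could not have been found. Between 14033 and 15264 genes were above 0 in each library. All 14 genes of the hepatocyte marker list reached 1 FPKM in every Huh7 and PLC library, but only 9 to 11 of 14 did in 97H. Albumin (ALB) stood at 2.32 to 15.8 FPKM in 97H. The list also holds general epithelial genes, among them EPCAM, at 0.0397 to 0.241 FPKM in 97H. Of 15 markers of other cell types, 7 to 8 reached 1 FPKM in Huh7, 1 to 2 in PLC and 5 to 7 in 97H. Among them, LUM reached 40.8 FPKM in Huh7 with the CDK4/6 inhibitor and KRT7 34.6 FPKM in 97H with the combination. The leukocyte gene PTPRC was at most 0.0226 FPKM in any library. Without KRT19, which Huh7 and 97H expressed strongly, the summed FPKM of these markers was 22.9 in PLC control against 127 in PLC combination, and 61.1 in 97H control against 152 in 97H combination. CD68, a lysosomal protein gene, made up most of that sum in both lines. With the CDK4/6 inhibitor alone the sum without KRT19 was 65.1 in PLC and 94.3 in 97H, and 74.5 against 23.5 in control in Huh7. With the XPO1 inhibitor alone it was 24.7 in PLC and 81.0 in 97H. The part of these markers in the results below was not tested.

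With the combination, DUSP15, DUSP1, DUSP8 and DUSP10 were each higher than control by at least 0.5 on the log2(FPKM + 1) scale in both PLC and 97H, and 6.97% of all 10477 genes tested met the same condition. DUSP4, DUSP5, DUSP6 and DUSP16 were higher in PLC and lower in 97H by at least 0.25 each way, and 18.0% of genes tested went opposite ways in the lines by that much. The fit across all genes (limma with the line as block, Benjamini-Hochberg adjusted p under 0.05) called 1 member higher, DUSP15, and 0.305% of all genes tested were called higher. DUSP15 passed the low-value filter only through the libraries with the XPO1 inhibitor, so the direction of its call was set in advance. The fit called 0 members lower, beside 0.487% of genes, and 0 members were lower by at least 0.5 in both lines, beside 6.83%. The median difference of the 10 members was 0.57, beside 0.07 over all genes tested. With the XPO1 inhibitor alone the median of the members was 0.48 beside 0.10, and with the CDK4/6 inhibitor alone 0.33 beside 0.03. These comparisons share their control libraries.

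**Figure D1:**
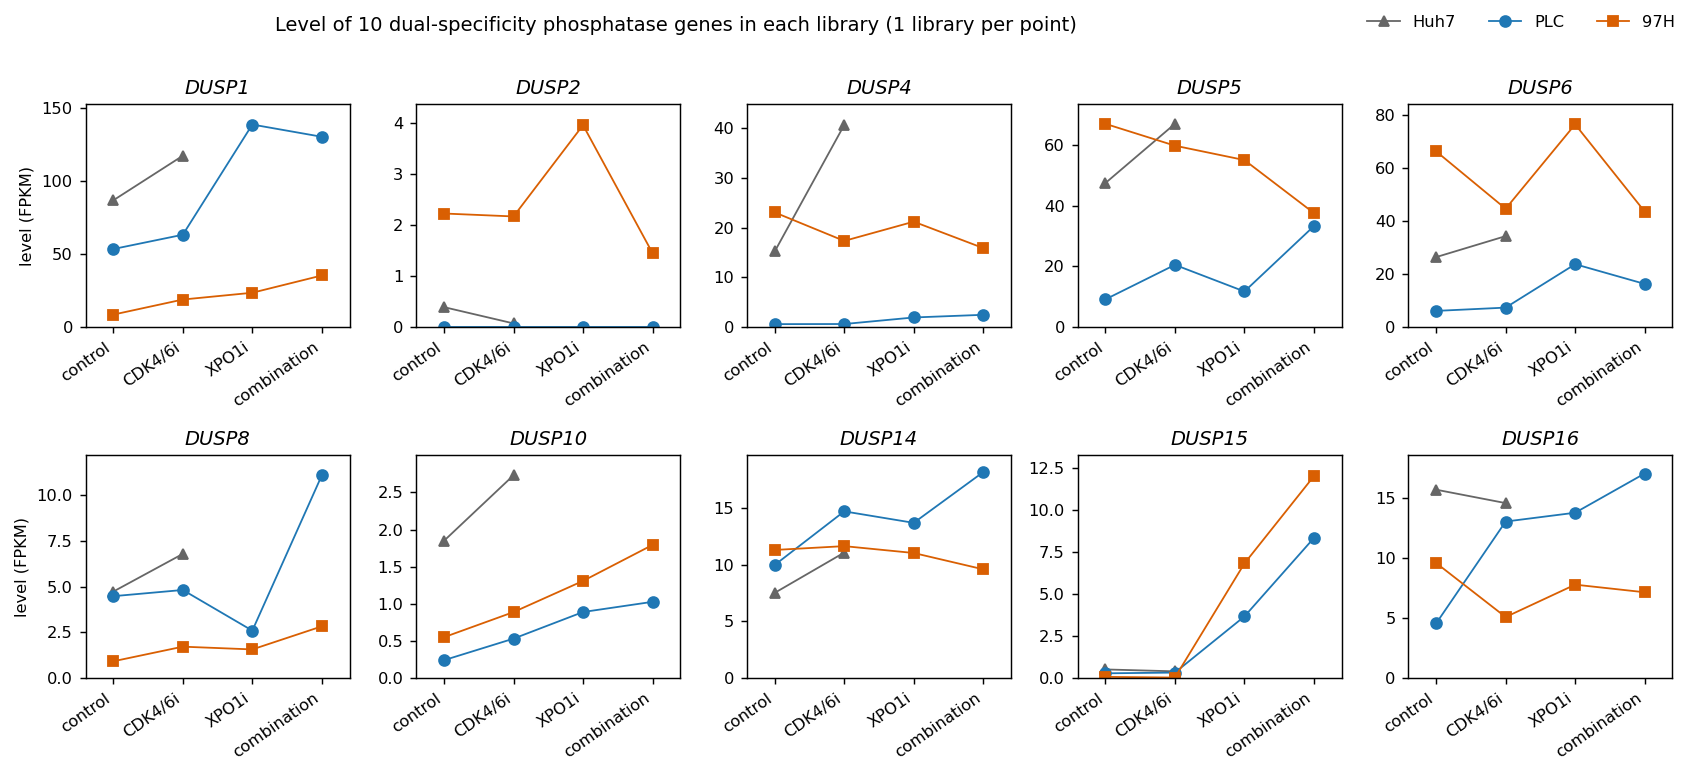
FPKM of the 10 described genes (1 panel each, vertical axis in FPKM) by treatment (horizontal axis), with 1 point per library and a line joining the libraries of a cell line. DUSP15 stands at or below 0.515 FPKM in all control and CDK4/6 inhibitor libraries and between 3.67 and 12.01 FPKM in the 4 libraries given the XPO1 inhibitor.

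DUSP1, which encodes a nuclear phosphatase made early after growth factors and stress and acting on p38, JNK and ERK, was the most abundant member in Huh7 and PLC. DUSP1 lies at chr5:172768090-172771195 on the minus strand of GRCh38. The 250 bases before its start, chr5:172771196-172771445 on the minus strand of GRCh38.p14 (RefSeq), are shown because they share with DUSP8 a motif that few promoters hold. The promoters of DUSP15, the member with the largest combination difference, do not hold this motif. Capitals mark the cAMP response element, TGACGTCA, which begins 125 bases before the start.
DUSP1: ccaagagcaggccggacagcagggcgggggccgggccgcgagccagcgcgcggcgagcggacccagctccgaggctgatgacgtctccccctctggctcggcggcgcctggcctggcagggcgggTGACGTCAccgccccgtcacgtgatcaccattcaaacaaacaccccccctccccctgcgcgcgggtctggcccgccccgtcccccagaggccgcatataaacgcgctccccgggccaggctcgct

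DUSP1 was at 53.4, 63.1, 138 and 130 FPKM in PLC control, CDK4/6 inhibitor, XPO1 inhibitor and combination. In 97H the same 4 libraries held 8.53, 18.8, 23.5 and 35.3 FPKM, and in Huh7 control held 86.6 and the CDK4/6 inhibitor 117 FPKM. Each treated library thus lay above the control of its own line. On the log2(FPKM + 1) scale DUSP1 was higher by 1.60 ± 0.32 (SE from limma, n = 2 lines) with the combination, by 1.36 ± 0.32 with the XPO1 inhibitor and by 0.58 ± 0.24 (n = 3 lines) with the CDK4/6 inhibitor. As a ratio of FPKM, the combination over control was 2.44 in PLC and 4.13 in 97H. Each SE, here and below, rests on a residual spread pooled over all treatments of the fit and moderated across genes. Such an SE does not measure the spread between the lines for a single treatment. The adjusted p of DUSP1 for the combination was 0.0738, above the threshold, and it ranged from 0.00979 to 1.0 over 16 alternatives, 5 of which called the gene, among them those without the CDK4/6 inhibitor library of either line.

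DUSP5, DUSP4 and DUSP2 complete the nuclear, inducible group. DUSP5 (chr10:110497838-110511544, plus strand), whose product acts on ERK, was at 9.12 FPKM in PLC control and at 20.5 (CDK4/6 inhibitor), 11.7 (XPO1 inhibitor) and 33.2 (combination). In 97H control held 66.9 FPKM and the treated libraries 59.7, 55.0 and 37.5 in the same order. So the control was the lowest PLC library and the highest 97H library for DUSP5. The combination differences were 1.76 in PLC and -0.82 in 97H, and their mean was 0.47 ± 0.53. In Huh7, DUSP5 was at 47.4 FPKM in control and 66.9 with the CDK4/6 inhibitor.

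DUSP4, whose product acts on ERK and JNK, was at 0.593 and 0.616 FPKM in PLC control and CDK4/6 inhibitor, and at 1.93 and 2.47 in the libraries with the XPO1 inhibitor and the combination. In 97H it was at 23.0, 17.3, 21.2 and 15.9 FPKM in the same order, with the combination lowest. Huh7 held 15.2 FPKM in control and 40.6 with the CDK4/6 inhibitor, a ratio of 2.67. DUSP2 (chr2:96143166-96145440, minus strand), known from activated immune cells, was listed at 0 in all 4 PLC libraries. It stood at 0.392 and 0.0720 FPKM in Huh7 control and CDK4/6 inhibitor, and at 2.23, 2.17, 3.97 and 1.45 FPKM in 97H. DUSP2 was therefore at or above 1 FPKM in 97H alone, with its highest value under the XPO1 inhibitor.

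DUSP6 encodes the cytoplasmic, ERK-selective phosphatase that is widely read as a mark of ERK output. It lies at chr12:89347232-89353271 on the minus strand. DUSP6 was at 6.10, 7.33, 23.7 and 16.3 FPKM in PLC control, CDK4/6 inhibitor, XPO1 inhibitor and combination. In 97H it was at 66.2, 44.6, 76.3 and 43.5 FPKM. Both lines had their highest DUSP6 with the XPO1 inhibitor alone, and the combination was lower than that by 0.52 in PLC and 0.80 in 97H on the log2 scale. It was the 1 member lower by at least 0.5 in both lines in that comparison, as were 3.96% of genes tested. In Huh7, DUSP6 was at 26.4 FPKM in control and 34.3 with the CDK4/6 inhibitor. The annotated exons of DUSP6 overlap an antisense gene, AC024909.2, and whether reads were counted by strand is not given in the sources used here.

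DUSP8, DUSP10 and DUSP16 encode the phosphatases that prefer JNK and p38. DUSP8 lies at chr11:1554044-1571920 on the minus strand. The 250 bases before its RefSeq start, chr11:1572272-1572521 on the minus strand of GRCh38.p14, are shown beside those of DUSP1 because they hold the cAMP response element at 2 places, 118 and 74 bases before the start, in capitals.
DUSP8: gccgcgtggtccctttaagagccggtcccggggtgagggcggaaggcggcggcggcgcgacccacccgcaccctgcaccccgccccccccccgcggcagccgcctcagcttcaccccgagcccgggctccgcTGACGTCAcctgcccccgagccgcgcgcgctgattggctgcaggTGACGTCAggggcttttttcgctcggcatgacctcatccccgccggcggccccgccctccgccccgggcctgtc

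DUSP8 was at 4.48, 4.82, 2.59 and 11.1 FPKM in PLC control, CDK4/6 inhibitor, XPO1 inhibitor and combination. In 97H it was at 0.919, 1.72, 1.57 and 2.83 FPKM. The combination library was the highest of each line, while the XPO1 inhibitor alone was the lowest library of PLC. The combination over control was 1.07 ± 0.41 on the log2 scale, with 1.142 in PLC and 0.997 in 97H. Against the XPO1 inhibitor alone, the combination was higher by 1.16 ± 0.41 (0.694 without the PLC XPO1 inhibitor library). DUSP8 and DUSP15 were the 2 members higher by at least 0.5 in both lines there, as were 3.72% of genes tested. In Huh7, DUSP8 was at 4.73 FPKM in control and 6.79 with the CDK4/6 inhibitor.

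DUSP10 lies at chr1:221701424-221742176 on the minus strand. RefSeq gives DUSP10 promoter windows at chr1:221742040-221742339 and chr1:221736851-221737150. The 163 bases of the first window that lie before the annotated gene, chr1:221742177-221742339 on the minus strand of GRCh38.p14, are shown. They hold the CCAAT box, which is in 34.6% of all promoters and not in the other DUSP10 window. The GC box, GGGCGG on either strand, is in both DUSP10 windows and is not marked. Capitals mark the CCAAT box, CCAAT or its reverse complement ATTGG, at 3 places.
DUSP10: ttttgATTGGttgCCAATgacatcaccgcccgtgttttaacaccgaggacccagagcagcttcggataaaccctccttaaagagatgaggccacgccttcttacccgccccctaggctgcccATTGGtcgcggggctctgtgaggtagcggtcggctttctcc

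DUSP10 was low throughout, at 0.241, 0.531, 0.890 and 1.03 FPKM in PLC control, CDK4/6 inhibitor, XPO1 inhibitor and combination. It was at 0.550, 0.889, 1.31 and 1.79 FPKM in 97H, and at 1.85 and 2.73 FPKM in Huh7 control and CDK4/6 inhibitor. The order of the 4 treatments was the same in PLC and 97H, with control lowest and the combination highest. The combination difference was 0.78 ± 0.23, a scale that understates ratios at such levels. With 0.1 in place of 1 added to FPKM the difference was 1.63. DUSP10 did not pass the low-value filter when the mean was taken over the 8 PLC and 97H libraries alone.

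DUSP16 (chr12:12474210-12562383, minus strand) was at 4.56 FPKM in PLC control and at 13.1 (CDK4/6 inhibitor), 13.8 (XPO1 inhibitor) and 17.1 (combination) in the treated PLC libraries. In 97H, control held 9.61 and the treated libraries 5.10, 7.80 and 7.17 FPKM. Control was again the lowest library of PLC and the highest of 97H, the arrangement seen for DUSP5. The mean combination difference was 0.66 ± 0.54. Huh7 held 15.7 FPKM in control and 14.6 with the CDK4/6 inhibitor.

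DUSP15 and DUSP14 are small atypical phosphatases. DUSP15, known chiefly from testis and from the cells that make myelin, lies at chr20:31847637-31870747 on the minus strand. DUSP15 was at 0.283 and 0.327 FPKM in PLC control and CDK4/6 inhibitor, and at 3.67 and 8.34 in PLC XPO1 inhibitor and combination. In 97H it was at 0.0727, 0.0311, 6.82 and 12.01 FPKM, and in Huh7 at 0.515 in control and 0.401 with the CDK4/6 inhibitor. The 4 libraries with the XPO1 inhibitor, alone or combined, did not overlap the 6 without it, and 0.449% of genes tested had those 4 libraries above the other 6. DUSP15 passed the low-value filter only through those 4 libraries, as DUSP2 did only through 97H. The direction of this separation, and of the DUSP15 call below, was therefore set in advance, and neither counts as support. The difference from control was 3.23 ± 0.39 for the combination (adjusted p = 0.0222, limma), 2.36 ± 0.39 for the XPO1 inhibitor (adjusted p = 0.703) and -0.04 ± 0.28 for the CDK4/6 inhibitor. The adjusted p for the combination ranged from 0.000848 to 0.688 over 16 alternatives, and 11 of them called DUSP15. The call was lost without the PLC control, PLC combination or 97H combination library (adjusted p = 0.065, 0.227 and 0.17).

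The combination over the XPO1 inhibitor alone was 2.27 for DUSP15 in PLC and 1.76 in 97H as a ratio of FPKM, and 0.87 ± 0.39 on the log2 scale (0.471 without the PLC XPO1 inhibitor library). Its difference from the CDK4/6 inhibitor alone was 3.24 ± 0.39 (adjusted p = 0.0674, limma), called in 8 of 16 alternatives. DUSP1 and DUSP15 were the 2 members higher by at least 0.5 in both lines in that comparison, as were 2.23% of genes tested, while DUSP5 and DUSP14 went opposite ways (24.7%). The exons of DUSP15 share 46 bases with those of TTLL9, on the opposite strand at chr20:31870702-31870747. TTLL9 was at most 0.233 FPKM in any library, below the DUSP15 level in all 4 libraries with the XPO1 inhibitor. DUSP14 (chr17:37489831-37513501, plus strand) was at 9.99, 14.7, 13.7 and 18.2 FPKM in PLC and at 11.3, 11.7, 11.0 and 9.61 in 97H, in the order control, CDK4/6 inhibitor, XPO1 inhibitor, combination. In Huh7 it was at 7.53 and 11.1 FPKM, and relative to the lowest value its 10 libraries spanned a narrower range than those of any other member.

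**Figure D2:**
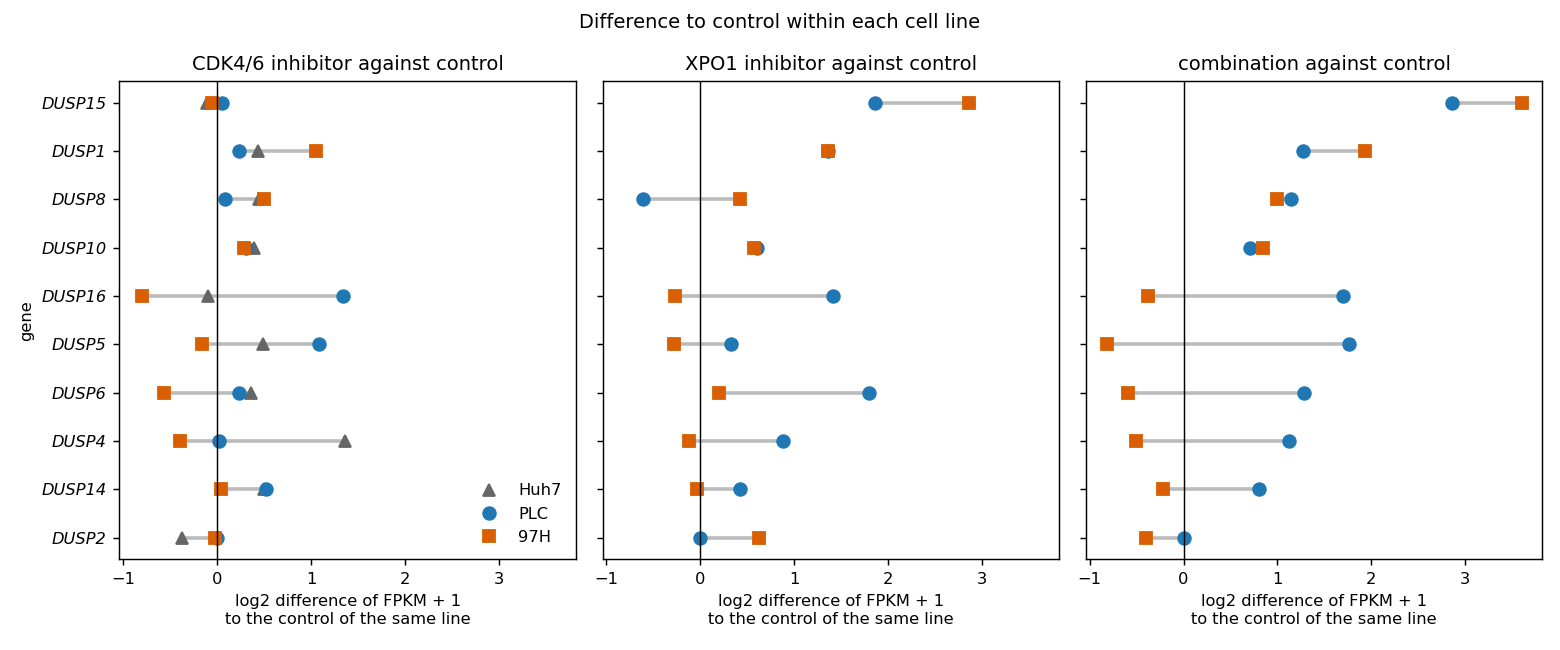
Difference from control in log2(FPKM + 1) (horizontal axis) of each member (vertical axis: gene) in each cell line (1 point for 1 treated against 1 control library) for the CDK4/6 inhibitor, the XPO1 inhibitor and the combination. For the combination DUSP15, DUSP1, DUSP8 and DUSP10 lie above 0.5 in both lines, and DUSP5 lies at 1.76 in PLC and -0.82 in 97H.

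With the XPO1 inhibitor alone, DUSP15, DUSP1 and DUSP10 were higher by at least 0.5 in both lines, beside 2.26% of genes tested. DUSP6 was higher by 1.798 in PLC and 0.203 in 97H. DUSP5, DUSP8 and DUSP16 went opposite ways in the lines by at least 0.25, beside 25.4% of genes tested, and 0 members were lower by at least 0.5 in both lines, beside 0.725%. With the CDK4/6 inhibitor alone, 0 of 10 members were higher by at least 0.5 in all 3 lines, beside 1.2% of genes tested. DUSP4, DUSP6 and DUSP16 had opposite directions in a pair of lines, beside 45.8%. No gene of the 10477 passed the adjusted threshold in limma for either inhibitor alone (0.0%), and 922 and 258 genes had an unadjusted p under 0.05 for the CDK4/6 and the XPO1 inhibitor. The count was also 0 for the combination against the CDK4/6 inhibitor (0.0%, 345 genes unadjusted) and against the XPO1 inhibitor (0.0%, 520 genes unadjusted). The interaction of the inhibitors, the excess of the combination over the sum of both single effects, called 0 genes (0.0%, 60 unadjusted), and it was 0.87 ± 0.55 for DUSP15 and 0.87 ± 0.58 for DUSP8. Leaving out a library gave 0.475 (PLC XPO1 inhibitor) to 1.268 (97H XPO1 inhibitor) for DUSP15 and 0.400 to 1.338 for DUSP8, with the same libraries at the ends. The interaction of DUSP15 was above 0.5 in both lines (0.277% of genes tested) and that of 0 members below -0.5 in both (1.27%), while DUSP5 and DUSP16 had opposite signs (47.1%).

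The lines differed in which members they expressed. All 4 PLC libraries stood above all 4 libraries of 97H for DUSP1, beside 27.1% of genes tested, and below them for DUSP2, DUSP4, DUSP5 and DUSP6, beside 16.5%. The fit with treatment as block called 6 of 10 members and 44.3% of genes tested. It called DUSP1 (2.14 ± 0.23 on the log2 scale) and DUSP8 (1.19 ± 0.29) higher in PLC, and 27.7% of genes tested were called so. DUSP4 (-3.15 ± 0.33), DUSP6 (-2.18 ± 0.32), DUSP2 (-1.74 ± 0.20) and DUSP5 (-1.64 ± 0.38) were called lower in PLC, and 16.6% of genes tested were. DUSP2 is listed at 0 in PLC and passed the low-value filter only through 97H, so the direction of its call was set in advance. The size of its difference is set by the pseudocount, and it was -4.59 with 0.1 in place of 1. The 4 treatments of a line stand in for replicates here, so that a line and its culture cannot be told apart. The median of all genes was 0.26 higher in PLC and 0.005 higher with median ratio scaling. That scaling moved the split of called genes from 2907 higher and 1738 lower to 2062 higher and 2299 lower. The call of DUSP8 was lost in 3 of 16 alternatives, among them leaving out the combination library of either line (highest adjusted p = 0.0599), and that of DUSP5 in 1 (adjusted p = 0.0923).

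**Figure D3:**
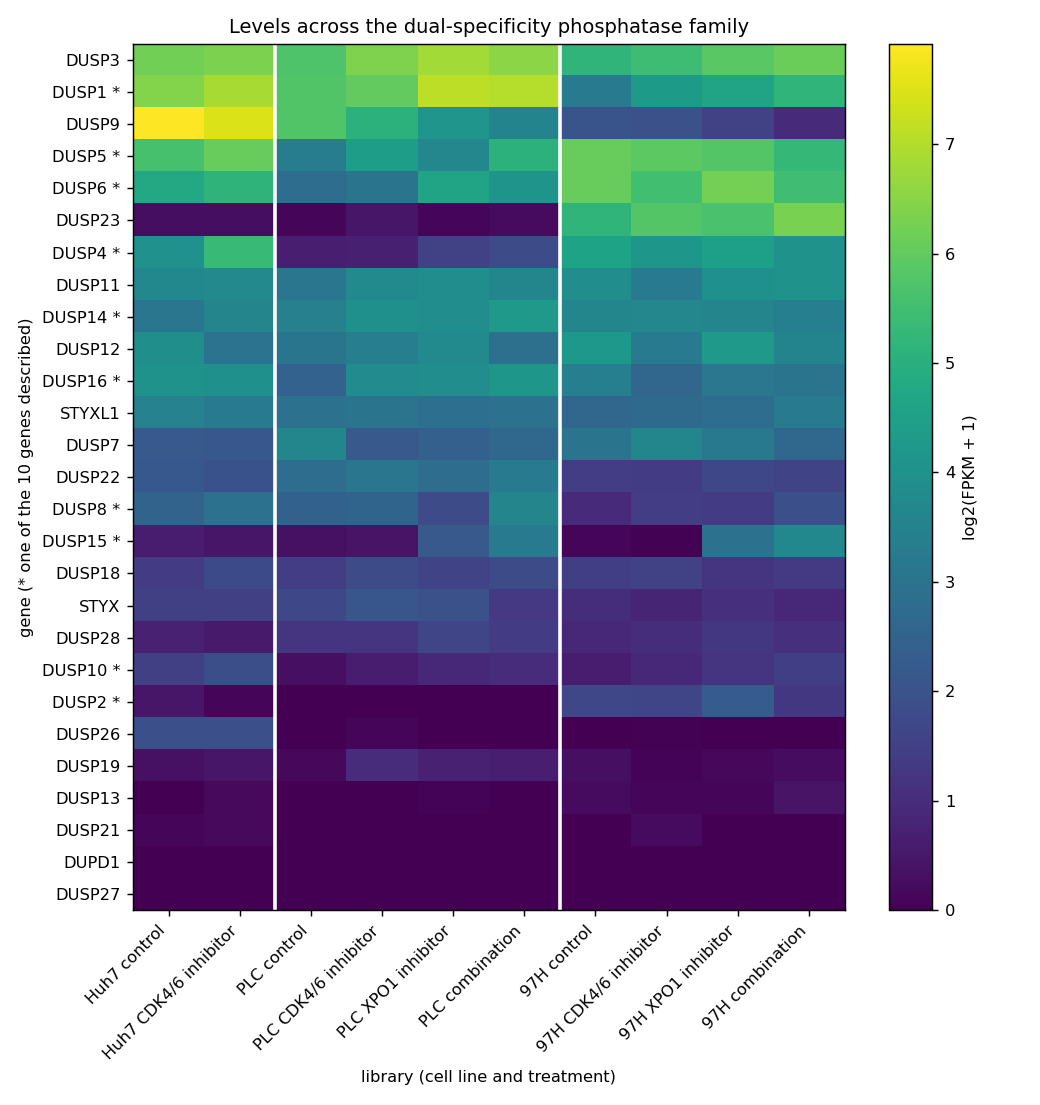
Levels of the 27 family genes (rows) in the 10 libraries (columns, grouped by cell line), with log2(FPKM + 1) as colour and the 10 described genes starred. DUSP9 is at 240 FPKM in Huh7 control and at most 3.16 FPKM in 97H, and DUSP23 is at most 79.0 FPKM, reached in 97H.

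Ranked by median FPKM, the order in PLC was DUSP1, DUSP5, DUSP14, DUSP16, DUSP6, DUSP8, DUSP15, DUSP4, DUSP10 and DUSP2. DUSP1 stood apart from DUSP5 there, while each pair of neighbours from DUSP5 down to DUSP10 had overlapping ranges. In 97H the order was DUSP5, DUSP6, DUSP1, DUSP4, DUSP14, DUSP16, DUSP15, DUSP2, DUSP8 and DUSP10. Only DUSP6 and DUSP1, and DUSP4 and DUSP14, were neighbours with ranges apart in 97H. In Huh7, with 2 libraries, the order was DUSP1, DUSP5, DUSP6, DUSP4, DUSP16, DUSP14, DUSP8, DUSP10, DUSP15 and DUSP2. DUSP1 made up 60.1% of the summed FPKM of the members in PLC control and 54.7% with the combination. In 97H the leading member was DUSP5 at 35.3% in control and DUSP6 at 26.1% with the combination.

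Among the rest of the family, DUSP9, a cytoplasmic ERK phosphatase known from placenta, had the lowest combination difference. DUSP9 was at 53.3, 33.3, 16.6 and 10.8 FPKM in PLC control, CDK4/6 inhibitor, XPO1 inhibitor and combination, and at 3.16, 2.91, 1.89 and 0.925 FPKM in 97H. Huh7 held 240 FPKM in control and 181 with the CDK4/6 inhibitor. Each treated library was below its control, and the combination difference was -1.66 ± 0.42 (adjusted p = 0.145, limma). DUSP9 supplied 37.2% of the summed FPKM of 10 MAP kinase phosphatases in PLC control and 4.76% with the combination. DUSP3, an atypical phosphatase of ERK and JNK, went the other way, at 52.4, 81.7, 112 and 91.3 FPKM in PLC and at 35.2, 43.3, 58.4 and 69.7 in 97H, a difference of 0.88 ± 0.28 (adjusted p = 0.224).

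None of the 11 other family genes tested passed the threshold for the combination, and their median difference was 0.16. DUSP7, a cytoplasmic ERK phosphatase, differed from control by -0.70 ± 0.51. DUSP23 was at most 79.0 FPKM and was confined to 97H among these libraries at levels above 1 FPKM. DUSP11, DUSP12, DUSP18, DUSP22, DUSP28, STYX and STYXL1 had means of 1.20 to 12.2 FPKM over the 10 libraries. The 6 family genes that did not reach a mean of 1 FPKM ranged from 0 to 2.82 FPKM, the highest value being DUSP26 in Huh7.

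**Figure D4:**
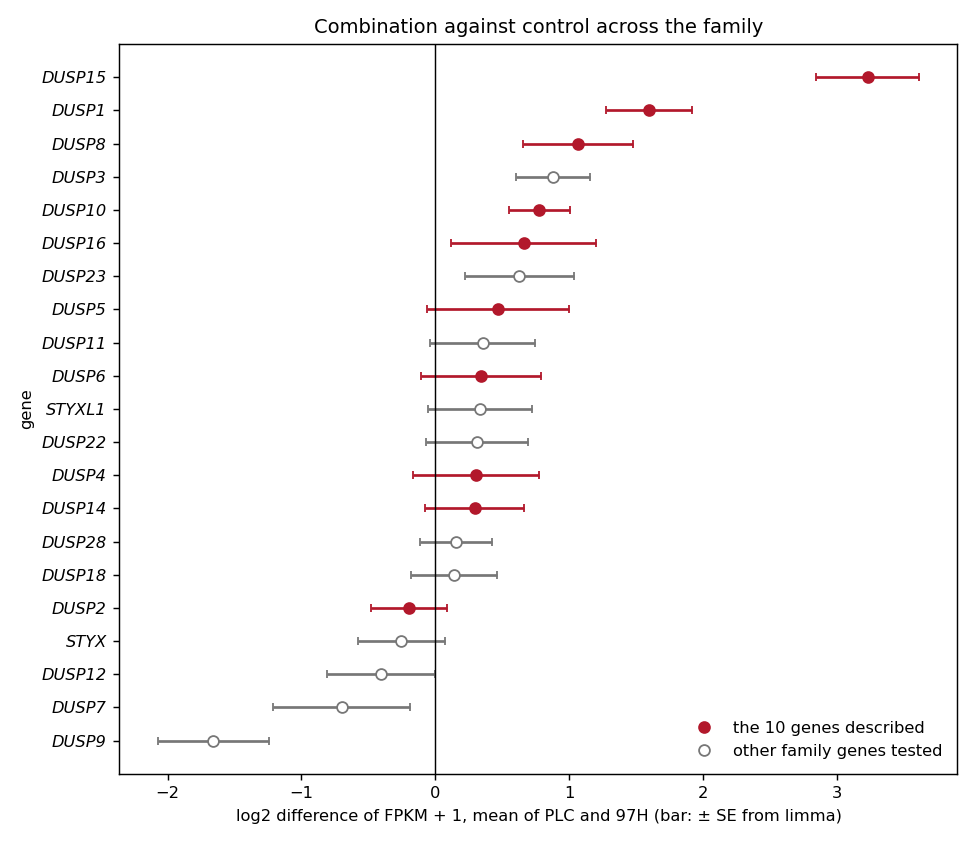
Combination against control in log2(FPKM + 1), mean of PLC and 97H with the SE from limma as bars, for the 21 family genes tested (vertical axis: gene). DUSP15 lies highest at 3.23 and DUSP9 lowest at -1.66, and DUSP2 is the 1 described gene below 0.

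The genes around the phosphatases in the pathway were read from lists, and in limma 0 genes of any of these lists passed the adjusted threshold for the combination, beside 0.792% of all genes tested in either direction. The median over all genes tested was 0.07, and their share above 0 was not counted. Counts above and below 0, here and in the next paragraph, are therefore descriptions only. Of 10 MAP kinases tested, 7 lay above 0 and 3 below, with MAPK11 (a p38 kinase) at 0.67 ± 0.37 and MAPK8 (a JNK kinase) at 0.59 ± 0.46. MAPK12, also a p38 kinase, was at -0.38 ± 0.43 but went opposite ways in the lines. It went from 37.4 FPKM in control to 15.3 with the combination in PLC, and from 9.11 to 13.1 in 97H. The 6 MAP kinase kinases tested had a median of -0.07, with MAP2K2, which activates ERK, at -0.21 ± 0.30, MAP2K3, which activates p38, at 0.19 ± 0.33, and MAP2K7, which activates JNK, at -0.23 ± 0.39. Of 24 receptors, ligands and adaptors that feed ERK, 5 had an unadjusted p under 0.05, beside 1301 of all 10477 genes tested (12.4%). They include the ligand HBEGF at 1.54 ± 0.43 and the receptors FGFR4 at -1.42 ± 0.45 and ERBB3 at 1.11 ± 0.38. HBEGF was at 1.02 and 1.76 FPKM in PLC and 97H control and at 7.80 and 4.32 with the combination.

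Of 13 ERK output and feedback genes, 5 lay above 0 and 8 below, with a median of -0.09. EGR1, an immediate early transcription factor induced through ERK, was at 4.43 and 9.49 FPKM in PLC and 97H control and at 0.644 and 1.18 with the combination, a difference of -1.996 ± 0.556 (adjusted p = 0.176, limma). CCND1 (cyclin D1) differed by 1.06 ± 0.36 and ETV4, an ETS factor, by -0.70 ± 0.37. Of 16 genes of JNK and p38 input and output, 13 lay above 0 and 3 below, with a median of 0.42. JUN, a component of AP-1, was at 10.6 and 65.3 FPKM in control and at 63.5 and 110.2 with the combination, a difference of 1.61 ± 0.43 (adjusted p = 0.162). ATF3, a stress-induced factor, differed by 1.37 ± 0.43 and GADD45A, a stress sensor, by 1.11 ± 0.44. Of the 14 hepatocyte markers, 6 lay above 0 and 8 below, with KRT18 at 1.18 ± 0.37, KRT8 at 0.86 ± 0.34 and AFP at -1.41 ± 0.76. All 6 tested markers of other cell types lay above 0, with CD68 at 1.58 ± 0.43, COL1A1 at 1.10 ± 0.38 and KRT7 at 1.40 ± 0.53. In PLC, COL1A1 and KRT7 were near 0, at 0.0181 and 0.0378 FPKM in control and 0.128 and 0.269 FPKM with the combination.

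Across the 10 libraries, with each line's mean removed, DUSP1 and DUSP10 were the members most alike (Pearson r = 0.953), followed by DUSP5 and DUSP14 (0.894), DUSP10 and DUSP15 (0.870) and DUSP1 and DUSP15 (0.850). The points share their libraries and treatments, and the values are a description. Among all tested genes, those most like DUSP15 were ZNF394 (0.971), OOEP (0.971) and SDSL (0.962). SDSL was at 15.3 and 17.0 FPKM in PLC control and CDK4/6 inhibitor and at 31.5 and 31.6 in the libraries with the XPO1 inhibitor. The genes most like DUSP1 were PPDPF (0.958), RAB17 (0.957) and PEBP1 (0.956). PPDPF was at 42.0, 88.2, 186 and 306 FPKM in 97H control, CDK4/6 inhibitor, XPO1 inhibitor and combination. The genes most like DUSP8 were CTSD (0.984), which encodes a lysosomal protease, PITPNM1 (0.974) and ADM2 (0.970).

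RefSeq promoters (GRCh38.p14, 250 bases before to 50 after a start) were matched to members by symbol. Promoters on chromosome 8, where DUSP4 lies, were left out of this match. It gave 8 of the 10 members, with 11 promoters in all. The cAMP response element TGACGTCA, searched like all motifs on both strands, occurred in the promoters of DUSP1 and DUSP8 printed above and in 1.85% of 35116 promoters. The E-box CACGTG occurred in those of DUSP1 and DUSP2 (7.26% of all promoters), and the ETS site CCGGAAG in 1 of DUSP15 (10.3%). The TATA box TATAAA occurred in that of DUSP1 (11.5%), and the CCAAT box in those of DUSP6 and DUSP8 and in 1 of DUSP10 (34.6%). The GC box GGGCGG was in 10 of the 11 promoters (45%), which belong to 7 of the 8 members, as DUSP10 and DUSP15 have several. The promoters of the members were 73.3% to 81.0% GC outside DUSP6 and DUSP10, which were at 55.0% to 58.3%. The median over all promoters was 58.7%, and the part of GC content in this count was not tested. The letters of the AP-1 site TGANTCA (7.71%), of the FOXO site TGTTTAC (3.42%) and of the CArG box (1.29%) were not in these windows. A match is a description of these letters and not a bound site.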

How the data were processed

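The submitters' processing notes name CASAVA 1.8.2 (base calling), STAR 2.4.2g1 (alignment), featureCounts from the Subread package (counting) and the build GRCh38. The deposited values are FPKM for 20030 genes, made by the authors. How FPKM was derived from the counts is not given in the sources used here. In 27 rows a symbol turned into a date was restored from the accession beside it. Log2(FPKM + 1) values of 10477 genes that averaged 1 FPKM or more over 10 libraries were fitted with limma 3.58.1 in R 4.3.3 (moderated with an intensity trend, two-sided, adjusted by Benjamini-Hochberg over all tested genes). The cell line was the block, or treatment for PLC against 97H. The CDK4/6 inhibitor was tested on 10 libraries (4 residual degrees of freedom) and the rest on the 8 of PLC and 97H (3).

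The members and gene lists were chosen with earlier results of these data known. Text names all members, other family genes averaging 1 FPKM or more, the 3 genes of smallest p per list for the combination, and the 3 most alike genes of the 3 members with the largest combination difference. The family genes outside this rule and the markers were named after their values were seen. Pairing by line comes from the labels. Deviations from the group mean correlated between the control and the CDK4/6 inhibitor library of a line at 0.901 in Huh7, 0.665 in PLC and 0.818 in 97H. Gene positions are from GENCODE. On simulated data of 10477 genes for the combination against control, 44% of changes of 2 and 91% of changes of 4 (log2) were called. Alternatives were another pseudocount, filters, normalizations, sets of libraries, a correction for GC content and length, no block, and leaving out each library. GC content and length were known for 97.1% of genes.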

Additional observations from a re-analysis of the deposited data

Results flagged for a closer look

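In 10 cases a member was higher than control in 1 line and lower in another by at least 0.25 on the log2(FPKM + 1) scale, with 1 library against 1 library in each line, and none of these differences between lines was tested. Such opposite directions were found in 45.8%, 25.4% and 18.0% of the 10477 genes tested for the CDK4/6 inhibitor, the XPO1 inhibitor and the combination.

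With the CDK4/6 inhibitor, DUSP4 differed by 1.36 in Huh7 and -0.39 in 97H. The gap between the lines was 1.75, and the difference was not tested. DUSP6 differed by 0.37 in Huh7 and -0.56 in 97H, a gap of 0.93, and DUSP16 by 1.34 in PLC and -0.80 in 97H, a gap of 2.14. With the XPO1 inhibitor, DUSP5 differed by 0.33 in PLC and -0.28 in 97H, a gap of 0.61. DUSP16 differed by 1.41 in PLC and -0.27 in 97H, a gap of 1.68. DUSP8 went the other way, with 0.42 in 97H and -0.61 in PLC, a gap of 1.03.

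With the combination, DUSP5 had the widest gap, 2.58, from 1.76 in PLC and -0.82 in 97H. DUSP16 followed with 2.08, DUSP6 with 1.88 and DUSP4 with 1.63, each higher in PLC and lower in 97H. DUSP16 was the 1 member to differ this way in all 3 treatments, and each of its comparisons in a line rests on the same control library.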

How the results depend on the processing

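Of 1134 values of the members under the alternatives, 1037 kept their direction and side of the threshold or stayed within the spread, 97 moved and 0 called values reversed. Leaving out a control or combination library turned the sign of the uncalled combination differences of DUSP2, DUSP4, DUSP5, DUSP6, DUSP14 and DUSP16, with DUSP5 at -0.51 to 1.45. For the combination against control the count of 83 genes became 6 with no filter on low values, 0 with no replicate block, 153 with quantile normalization, 129 with median ratio scaling, 606 with the replicate block and GC content and length trends removed, and 261 with all 10 libraries. Leaving out a library gave 0 to 184, with 0 without PLC control or PLC combination, 2 without 97H combination, 166 without 97H control, and 158 and 184 without the CDK4/6 inhibitor library of PLC and 97H. For the XPO1 inhibitor the count was 2 with no filter and 1 with quantile normalization (0 to 1 leaving out a library, 1 without the CDK4/6 inhibitor library of either line). For the combination against the CDK4/6 inhibitor it was 8 with a pseudocount of 0.1, 4 with no filter, 6 with the filter over the libraries of the fit, 8 with quantile normalization, 5 with median ratio scaling, 53 with the replicate block and the trends removed, 3 with all 10 libraries, and 0 to 8 leaving out a library (5 and 8 without the XPO1 inhibitor library of PLC and 97H, 3 without 97H CDK4/6 inhibitor). For the combination against the XPO1 inhibitor it was 4 with no filter, 4 with quantile normalization, 1 with median ratio scaling, 67 with the replicate block and the trends removed, and 0 to 6 leaving out a library (5 and 6 without the CDK4/6 inhibitor library of PLC and 97H). The interaction called 3 genes with no filter. Counts at an unadjusted p under 0.05 moved as well. Leaving out a library gave 222 (Huh7 control) to 1663 (97H control) for the CDK4/6 inhibitor, and 74 (PLC XPO1 inhibitor) to 2773 (97H control) for the XPO1 inhibitor. The same 2 libraries gave 12 to 1595 for the interaction, 241 to 647 for the combination against the CDK4/6 inhibitor and 110 to 1004 against the XPO1 inhibitor. For the combination against control it was 796 (PLC combination) to 2785 (97H control). With no replicate block the counts for the single inhibitors were 66 and 25. The line comparison called 3205 to 5641 genes when a library was left out. The cause was not tested.

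DUSP15 also lost its call for the combination with no filter (adjusted p = 0.272, limma) and with no replicate block (0.688). Its difference was 5.30 with a pseudocount of 0.1. With 1 library per line and treatment, an arm left with 1 sample was assumed to vary like the others.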
